A study of Mus musculus with 4 samples.

Results

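The transcripts described here are those of 9 liver carboxylesterases (Ces1d, Ces1e, Ces1f, Ces1g, Ces2a, Ces2c, Ces2e, Ces3a and Ces3b) and of Aadac, the arylacetamide deacetylase. They were chosen as a gene family, with earlier results of these data known, and all 10 were found by symbol among the 24346 symbols in the files. The livers came from male ob/ob mice, a leptin-deficient and obese strain. From 6 weeks of age the mice were fed for 4 weeks with CD (regular chow with casein 23%, sucrose 10% and corn oil 5%), CD+7KC, WD (a Western-type diet with casein 20%, sucrose 34% and cocoa butter 20%) or WD+7KC. Cholesterol made up 1% of every diet, the CD and WD control diets included, and 7-ketocholesterol (7KC), an oxidized cholesterol, made up 0.01% of the CD+7KC and WD+7KC diets. Each group had 1 library, the sources used here do not say how many mice stood behind a library, and lean mice were not part of the design. The differences below could not be checked on replicates, and p-values were not computed. The questions addressed are how the level of these genes differed when 7KC was added to each diet and between the 2 diets.

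Carboxylesterases are serine hydrolases of the endoplasmic reticulum that cleave ester bonds in neutral lipids, drugs and other foreign compounds. In the liver several of them, and the related membrane enzyme encoded by Aadac, release fatty acids from stored triglyceride, and part of these fatty acids is used again for the triglyceride of very low density lipoprotein (VLDL). In the mouse the family has grown by tandem duplication, so that neighbouring genes encode very similar enzymes.

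The 9 carboxylesterase genes lie in 2 clusters on chromosome 8 (GRCm38, the assembly also called mm10, GENCODE vM21 annotation). The first holds, on the minus strand, Ces1d (chr8:93166068-93197838), Ces1e (chr8:93201218-93229619), Ces1f (chr8:93256236-93279747) and Ces1g (chr8:93302369-93337308), each with 14 exons. The second holds, on the plus strand, Ces2a (chr8:104734003-104741634), Ces2c (chr8:104847068-104854483) and Ces2e (chr8:104926260-104934672) with 12 exons each, followed by Ces3a (chr8:105048601-105058413) and Ces3b (chr8:105083753-105093929) with 13 exons each. Aadac lies apart on the plus strand of chromosome 3 (chr3:60025717-60040160) and has 5 exons. Ces3a and Ces3b were the closest pair of members, with 95.3% of the aligned bases of their coding sequences identical. The values were 84.0% for Ces2c and Ces2e, 83.3% for Ces2a and Ces2e, 83.0% for Ces2a and Ces2c, and 81.6% for Ces1d and Ces1g.

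All 10 members code for a single glycine, any residue, serine, any residue, glycine stretch, the pattern that surrounds the catalytic serine of these hydrolases. The codons of that stretch are shown for 5 members, 5′ to 3′ from the GENCODE transcripts, with the serine codon in capitals, because they show how the same site is written in the 4 kinds of gene.
Ces1d: ggagagTCAgcagga
Ces2a: ggagtcTCAgcagga
Ces2c: ggcgagTCTgcaggt
Ces3a: ggtaacTCTgctgga
Aadac: ggagacAGTgctggt
In these 5 genes the serine was codon 221 of Ces1d, 227 of Ces2a, 230 of Ces2c, 232 of Ces3a and 188 of Aadac. The Ces3b stretch was the same as that of Ces3a.

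The ends of the coding sequences separate the members into groups. A final histidine, any residue, glutamate, leucine is known to return carboxylesterases to the endoplasmic reticulum. The last codons are shown with the final 4 amino acid codons in capitals and the stop codon after them, and Ces1c, which encodes the carboxylesterase secreted into mouse plasma and is no member, is added for contrast.
Ces1d: tcccacagggaaCATGTTGAGCTCtga
Ces2a: tctcaggacaagCATGCAGAGCTGtag
Ces2c: tctcaggacaagCACAGGGAGCTTtag
Ces3a: agcaggaaagttCCAGAGGAGCTCtga
Aadac: ttgagttggcttATCAAAAATCTGtaa
Ces1c: cctactgaacacACAGAACACAAAtga
The Ces1 and Ces2 members ended in this signal, whereas Ces3a and Ces3b, whose ends were identical, have a proline codon in place of the histidine codon. Neither Aadac nor Ces1c ended in it.

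FPKM, fragments per kilobase of exon and 1e6 mapped fragments, is a level per transcript length, so that members can be compared with each other within a library. The files give no read counts. From the steps between low FPKM values, 9440000 to 12110000 fragments were estimated per library, lowest in WD and highest in WD+7KC, and 73.8% to 74.8% of the low values differed from whole reads by at most 0.1. The 95% counting intervals below rest on this estimate and on the shortest RefSeq mRNA of each gene, and they cover counting error between 2 libraries only, not the variation between mice. Differences are log2 fold changes of FPKM + 0.1. The FPKM values summed to between 602059 in WD+7KC and 715605 in CD, and rescaling to equal sums moved the median of all genes in WD+7KC relative to WD from 0.002 to 0.21. The median of the 10 members is therefore also given relative to the median of all genes. With upper quartile scaling the median of all genes in WD+7KC relative to WD was 0.047, and with median-ratio size factors 0.003. Other medians are on the deposited scale, and those that involve WD+7KC depend on which scaling is used. Because the samples were whole liver, fewer cells of a type and less RNA per cell cannot be told apart.

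Reads of near copies limit the values of some members. Of the 75-base windows of the transcript, the length of a read, 25.9% in Ces2c, 18.3% in Ces3a, 15.4% in Ces3b and 14.8% in Ces2a occurred without a mismatch in a transcript of another gene. The other genes were Ces3b for Ces3a, Ces3a for Ces3b, the pseudogene Gm7208 for Ces2a, and mainly the pseudogene Ces2d-ps for Ces2c. In Ces1e and Ces2e the share was 1.05% and 0.34%, and in Ces1d, Ces1f, Ces1g and Aadac no window was shared. How reads with several matches were divided is not given in the sources used here, so the levels of Ces2a, Ces2c, Ces3a and Ces3b carry this uncertainty. Ces1d and Ces3a also overlap the annotated genes Gm45909 (same strand) and Gm45724 (opposite strand), and whether counting used the strand is not stated.

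The summed level of the 10 members was highest in CD and lowest in WD+7KC. It was 2699.0 FPKM under CD, 2447.4 with CD+7KC, 1746.3 under WD and 1266.1 with WD+7KC. The WD+7KC sum was thus 0.469 of the CD sum, and as a share of all FPKM values the members made up 0.377% under CD, 0.352% with CD+7KC, 0.250% under WD and 0.210% with WD+7KC. Ces1d, Ces3a and Aadac together held 61.8% of the sum in CD and 58.6% in WD+7KC. Their make-up was different: Ces3a went from 20.1% of the sum in CD to 8.6% in WD+7KC, while Aadac went from 21.7% to 25.5% and Ces2e from 5.8% to 9.9%.

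**Figure D1:**
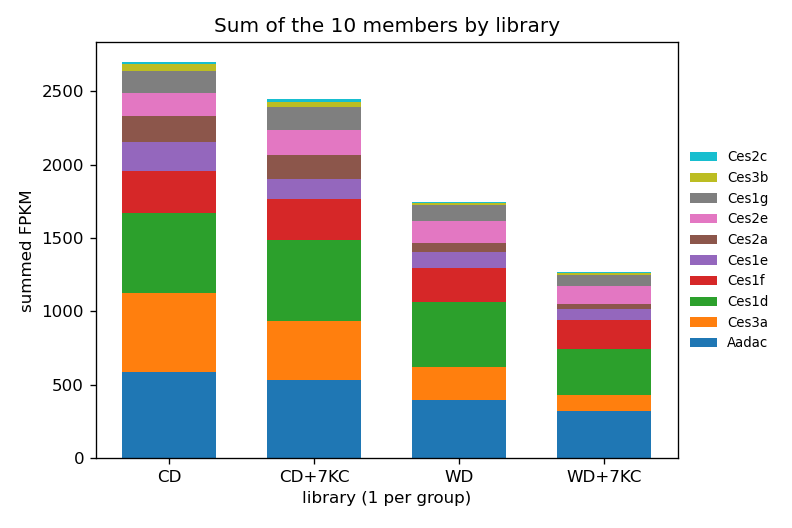
Stacked bars of the FPKM values of the 10 members in each library (1 library per group; vertical axis in FPKM from 0). The bars reach 2699.0 under CD, 2447.4 with CD+7KC, 1746.3 under WD and 1266.1 with WD+7KC, and the Ces3a segment shrinks more than those of Aadac and Ces1d.

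Among the Ces1 genes, Ces1d, known as triacylglycerol hydrolase for its part in the use of stored triglyceride for VLDL, had the highest level. It was at 541.4 FPKM under CD, 554.4 with CD+7KC, 442.0 under WD and 309.6 with WD+7KC. Both CD libraries were above both WD libraries, and the CD and CD+7KC values were within counting error of each other (0.03, interval -0.004 to 0.073). For WD+7KC against WD the log2 fold change was -0.51 (-0.56 to -0.47), or -0.30 after rescaling to equal sums.
Ces1f, a second member with triglyceride hydrolase activity, changed little. Its level was 289.5 FPKM under CD, 276.9 with CD+7KC, 234.0 under WD and 200.006 with WD+7KC, so that the highest library was 1.45 times the lowest. For WD+7KC against WD the log2 fold change, -0.23, became -0.010 after rescaling.
Ces1e, also known as egasyn, which holds β-glucuronidase in the endoplasmic reticulum, was at 193.5 FPKM under CD, 141.8 with CD+7KC, 106.7 under WD and 73.6 with WD+7KC. It was the Ces1 member with the widest range, 2.63-fold, and the only one of the 4 Ces1 members with a difference below -0.4 when 7KC was added to CD (-0.45, interval -0.52 to -0.38).
Ces1g, an esterase linked to hepatic lipogenesis and VLDL secretion, was at 148.4 FPKM in CD and 161.0 in CD+7KC. It was at 104.3 FPKM in WD and 76.2 in WD+7KC. Ces1g was thus slightly higher with 7KC under CD (0.12, interval 0.05 to 0.18) and lower with 7KC under WD (-0.45, interval -0.54 to -0.37). Ces1e and Ces1g were nearly at the same level in both WD libraries, whereas Ces1e was above Ces1g in CD and below it in CD+7KC.

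The Ces2 genes, whose human counterpart is a main intestinal and hepatic drug esterase, differed most among themselves. Ces2a, a liver enzyme with triglyceride and diglyceride hydrolase activity, was at 180.4 FPKM under CD, 162.6 with CD+7KC, 62.9 under WD and 33.0 with WD+7KC. The WD+7KC library was 5.47-fold below CD, and the steps were unequal, with a log2 fold change of -1.52 (-1.63 to -1.42) for WD relative to CD and of -0.93 (-1.08 to -0.79) for WD+7KC relative to WD. The latter was -0.71 after rescaling to equal sums and -0.75 without the 20 highest genes. About 3256 reads were estimated for Ces2a in CD and 659 in WD+7KC.
Ces2e, which lies downstream in the same cluster, was close to constant. It was at 155.7 FPKM under CD, 166.0 with CD+7KC, 152.6 under WD and 125.2 with WD+7KC, and its 1.33-fold range was the narrowest of the 10 members. In WD relative to CD its log2 fold change was -0.03 (interval -0.10 to 0.05), and its sign turned after rescaling to equal sums.
Within a library the ratio of Ces2a to Ces2e does not depend on the scaling. It was 1.16 under CD, 0.98 with CD+7KC, 0.41 under WD and 0.26 with WD+7KC. The member with the higher level was thus Ces2a in CD and Ces2e in WD and WD+7KC, while in CD+7KC they were nearly level.
Ces2c, an acylcarnitine hydrolase, was the member that was higher with 7KC under both diets. It was at 11.9 FPKM under CD, 21.6 with CD+7KC, 5.15 under WD and 7.07 with WD+7KC, from about 230, 420, 86 and 152 reads. The log2 fold change with 7KC was 0.86 (0.63 to 1.10) under CD and 0.45 (0.07 to 0.86) under WD. At the same time both WD libraries were below both CD libraries, with -1.19 for WD relative to CD and -1.60 for WD+7KC relative to CD+7KC. The ratio of Ces2a to Ces2c was 15.2 under CD, 7.51 with CD+7KC, 12.2 under WD and 4.66 with WD+7KC.

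The 250 bases before the RefSeq start sites of Ces2a and Ces2c are shown because these neighbours differed in direction with 7KC (GRCm38.p6, plus strand, 5′ to 3′). Capitals mark matches, on either strand, to 5 short motifs that were searched: TATAAA (the box close to many start sites), GTTAAT (part of the HNF1 site), AGGTCA (the recognition hexamer of nuclear receptors), CAAAGTCCA (HNF4 core) and TTGCNNAA (C/EBP-like).
Ces2a (chr8:104733753-104734002): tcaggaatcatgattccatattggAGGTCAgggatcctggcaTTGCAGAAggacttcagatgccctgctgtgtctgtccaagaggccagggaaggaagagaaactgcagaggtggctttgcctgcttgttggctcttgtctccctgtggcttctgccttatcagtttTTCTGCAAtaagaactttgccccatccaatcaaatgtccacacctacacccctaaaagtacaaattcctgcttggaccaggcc
Ces2c (chr8:104846818-104847067): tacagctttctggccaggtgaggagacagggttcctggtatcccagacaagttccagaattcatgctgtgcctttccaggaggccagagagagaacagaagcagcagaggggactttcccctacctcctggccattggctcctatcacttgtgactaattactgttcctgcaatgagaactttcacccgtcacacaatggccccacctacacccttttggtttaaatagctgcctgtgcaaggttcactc
Over 243 aligned bases, 68.3% were identical. The Ces2a window held AGGTCA at -226 and TTGCNNAA at -208 and -83, and the Ces2c window held none of the 5 motifs, which says only that these letters are not in this window. The Ces2e window, not shown, was 69.9% identical to that of Ces2a and held TTGCNNAA at -93. A link between these motifs and the levels was not tested. Among 32851 RefSeq promoter windows of the same length, AGGTCA occurred in 14.0%, TTGCNNAA in 9.56%, TATAAA in 12.4%, GTTAAT in 6.43% and CAAAGTCCA in 0.384%.

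The Ces3 genes encode liver carboxylesterases that are abundant in mouse hepatocytes. Ces3a was at 542.6 FPKM under CD, 397.3 with CD+7KC, 228.3 under WD and 109.5 with WD+7KC, about as high as Ces1d in CD and far below it in WD+7KC. Ces3b, at a lower level, was at 50.4 FPKM under CD, 31.3 with CD+7KC, 17.8 under WD and 8.60 with WD+7KC. In both genes every library was separated from the next by more than counting error, in the order CD, CD+7KC, WD and WD+7KC.
The highest library was 4.96 times the lowest for Ces3a and 5.85 times for Ces3b, the widest range of the 10 members. With 7KC the log2 fold change under WD was -1.06 (-1.14 to -0.98) for Ces3a and -1.04 (-1.32 to -0.77) for Ces3b. Under CD it was -0.45 (-0.49 to -0.41) for Ces3a and -0.68 (-0.84 to -0.54) for Ces3b. The ratio of Ces3a to Ces3b was 10.8 under CD, 12.7 with CD+7KC, 12.9 under WD and 12.7 with WD+7KC. These genes share windows with each other, and the part of reads that match both in this ratio was not tested.
The window before the start of Ces3b, the member with the widest range, is shown in the same way.
Ces3b (chr8:105083505-105083754): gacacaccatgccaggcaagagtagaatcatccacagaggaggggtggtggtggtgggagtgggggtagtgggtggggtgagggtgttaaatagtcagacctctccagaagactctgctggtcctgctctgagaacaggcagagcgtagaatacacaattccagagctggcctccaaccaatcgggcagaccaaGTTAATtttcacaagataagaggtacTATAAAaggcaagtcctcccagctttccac
It held TATAAA at -30 and GTTAAT at -56.

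Aadac, the membrane-bound deacetylase that also hydrolyses lipid esters, had the highest level of the 10 members in CD and in WD+7KC. It was at 585.3 FPKM under CD, 534.4 with CD+7KC, 392.6 under WD and 323.4 with WD+7KC. The order of the libraries was that of the Ces3 genes, but the range was 1.81-fold. Its log2 fold change with 7KC was -0.13 (-0.18 to -0.08) under CD and -0.28 (-0.34 to -0.22) under WD, the latter being -0.063 after rescaling to equal sums.

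**Figure D2:**
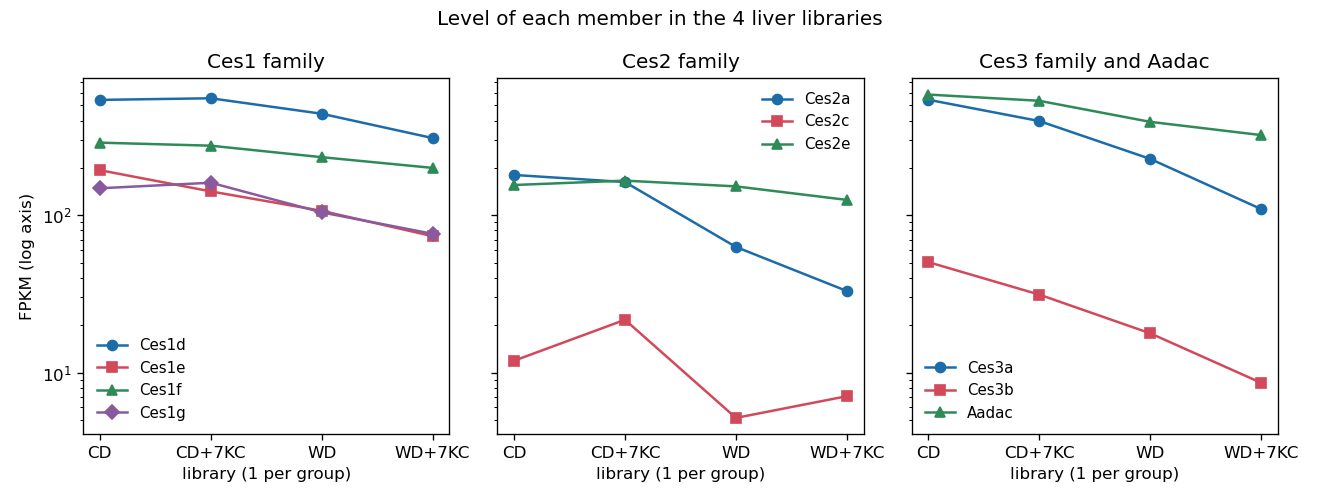
FPKM of each member (log axis) in the 4 libraries, 1 point per library, with lines that only join the points of a gene. Ces2a, Ces3a and Ces3b slope most steeply towards WD+7KC, Ces2e is nearly flat, and Ces2c is higher in each library with 7KC than in the library of the same diet without it.

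The difference between the diets was in the same direction in nearly all members. In WD relative to CD all 10 members were lower with the deposited values, of which Ces2e was within counting error, against 49.0% of the 15597 genes above 0 FPKM in either library. Ces2a, Ces3b, Ces3a and Ces2c were below -1, where 4.38% of all genes were, and no member was above 1, where 5.31% were. The median of the members was -0.72, which is 0.73 below the median of all genes. The 4 members below -1 are those with over 5% of their windows shared with other genes, and the median of the 6 members with at most 5% shared was -0.41.
With 7KC in both diets the members lay further apart. In WD+7KC relative to CD+7KC 10 of 10 members were lower, against 49.8% of 15898 genes, and the 10 counting intervals lay below 0. Of the 4662 genes averaging 10 FPKM or more, 59.4% were lower, with a median of -0.077. Ces2a (-2.30), Ces3a (-1.86), Ces3b (-1.85), Ces2c (-1.60) and Ces1g (-1.08) were below -1, where 4.61% of all genes were, and no member was above 1, where 8.01% were. The median was -1.01, or 1.01 below that of all genes, and for the 6 members with at most 5% of windows shared it was -0.78. After rescaling to equal sums, with or without the 20 highest genes, Ces1g was at -0.87 and -0.88, which leaves 4 members below -1.

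Addition of 7KC to WD went with lower levels in 9 of 10 members, against 49.8% of 15753 genes. The exception was Ces2c. Ces3a and Ces3b were below -1, where 2.79% of all genes were, and no member was above 1, where 6.21% were; under rescaling to equal sums neither was below -1 (-0.84 and -0.82). The median was -0.48, which is 0.49 below that of all genes and 0.37 below that of the 4657 genes averaging 10 FPKM or more, of which 72.0% were lower in WD+7KC. After rescaling it was -0.27, still 0.47 below that of all genes. The 5 hepatocyte markers described below were also lower in 5 of 5, with a median of -0.49, close to that of the members. The marker values were spread from -0.86 for Cyp2e1 to -0.13 for Cps1. The part of hepatocyte content was not tested.
Addition of 7KC to CD went with differences of both signs. With the deposited values they were smaller in size than under WD, except for Ces2c (0.86 under CD, 0.45 under WD). In CD+7KC relative to CD, Ces1e, Ces1f, Ces2a, Ces3a, Ces3b and Aadac were lower and Ces1d, Ces1g, Ces2c and Ces2e higher, so that 6 of 10 members were lower against 50.7% of 15684 genes. No member was below -1 or above 1, where 2.91% and 3.84% of all genes were. The median was -0.097 (-0.096 relative to all genes), and for the 6 members with at most 5% of windows shared it was -0.015. In the same comparison 5 of 5 hepatocyte markers were lower (median -0.23) and 6 of 6 macrophage and Kupffer cell markers higher (median 0.70), and their part in the members' values was not tested.
With a lower threshold of 0.58 in either direction, 2 members passed in CD+7KC relative to CD against 17.5% of all genes, and 3 in WD+7KC relative to WD against 21.0%. In WD relative to CD 5 members passed against 24.2%, and in WD+7KC relative to CD+7KC 8 members against 28.9%. Comparisons that share a library are not independent of each other.

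**Figure D3:**
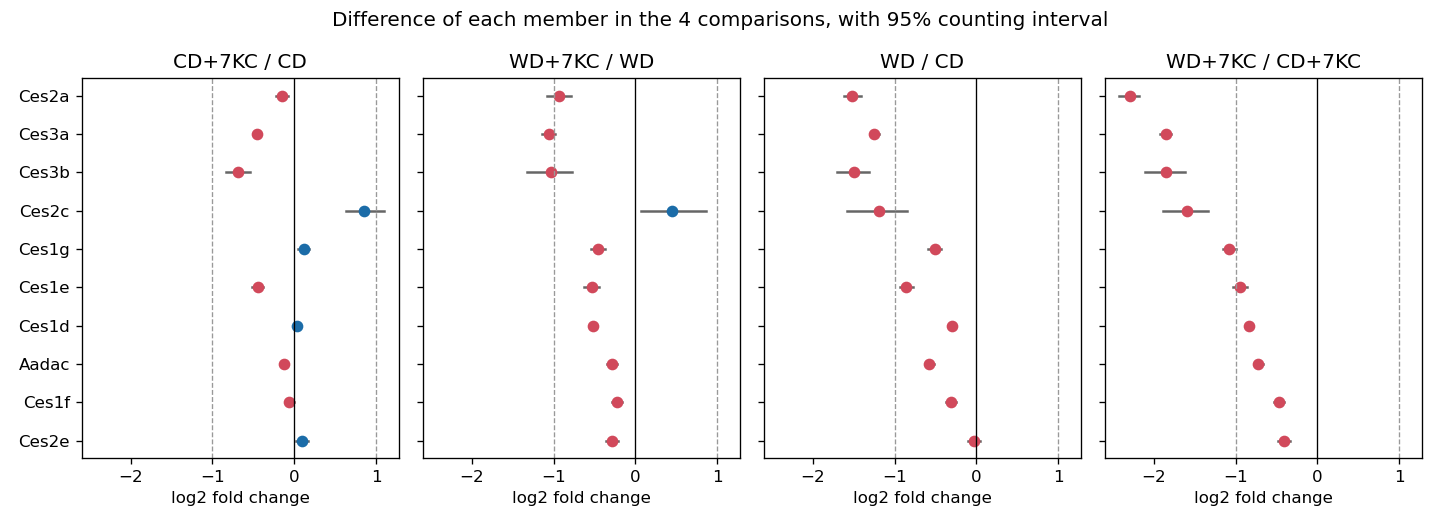
Log2 fold change of FPKM + 0.1 for each member (points, red below 0 and blue above 0) with its 95% counting interval (lines) in the 4 comparisons; dashed lines mark -1 and 1. In WD+7KC relative to CD+7KC all points lie below 0, from -0.41 for Ces2e to -2.30 for Ces2a, and with 7KC added to CD they lie on both sides of 0.

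The comparisons with 7KC under each diet use different libraries, so their difference can be taken for each member. In 10 of 10 members the 7KC difference was lower under WD than under CD, against 50.5% of 16408 genes above 0 FPKM in any library and 65.4% of the 4671 genes averaging 10 FPKM or more. The gap was -0.78 for Ces2a, -0.61 for Ces3a, -0.57 for Ces1g and -0.55 for Ces1d, and it was narrowest for Ces1e (-0.09). For Ces1e, Ces2c and Ces3b the counting intervals of the 7KC difference under CD and under WD overlapped. After rescaling to equal sums 7 of 10 members were lower under WD, with Ces1e, Ces1f and Aadac on the other side of 0, against 36.2% of all genes. The gap could not be tested, because each of the 4 libraries stands alone.
WD+7KC was the lowest of the 4 libraries for 9 of 10 members, Ces2c being lowest in WD, and this held under each of the 4 other scalings. Of all genes 26.0% were lowest in WD+7KC, and of those with a mean of at least 10 FPKM 45.9%. The order CD, CD+7KC, WD, WD+7KC from high to low was found in 6 members (Ces1e, Ces1f, Ces2a, Ces3a, Ces3b and Aadac), against 7.34% of all genes and 13.7% of those with a mean of at least 10 FPKM.

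**Figure D4:**
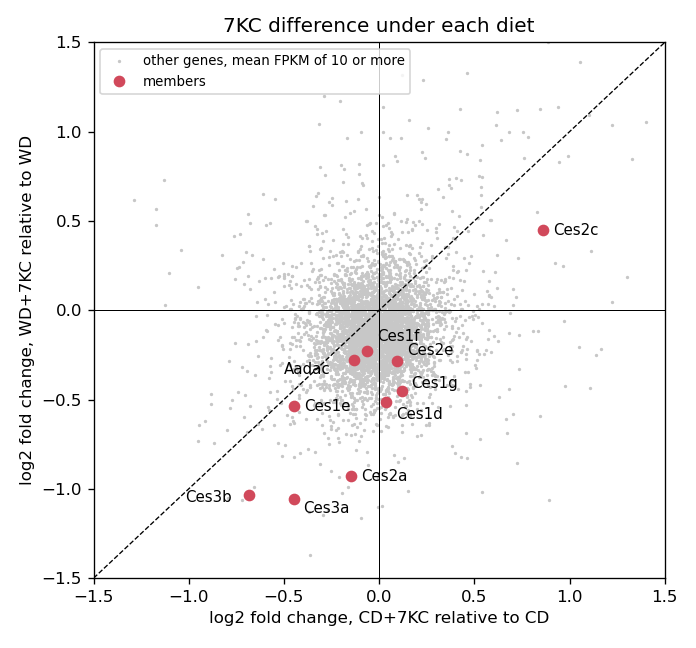
Log2 fold change with 7KC under CD (horizontal axis) against that under WD (vertical axis) for the members (red) and 4605 other genes averaging 10 FPKM or more (grey; 56 more lie beyond the axes, which end at 1.5). The dashed line marks equal differences, and the 10 members lie below it with the deposited scaling, Ces2c in the upper right and Ces3a and Ces3b in the lower left.

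The members were not alike in pattern. By the distance between patterns over the 4 libraries (Euclidean, log2 FPKM + 0.1, centred on each gene), the closest pairs were Ces3a and Ces3b (0.21), Ces1f and Ces2e (0.21) and Ces1d and Aadac (0.22), and the farthest was Ces2a and Ces2e (1.76), which lie in the same cluster. The genes outside the family nearest to the mean pattern of the members, among 4661 averaging 10 FPKM or more, were Acadsb (distance 0.051), an acyl-CoA dehydrogenase gene, Lipc (0.073), the hepatic lipase gene, and Inca1 (0.086). Lipc was at 89.2 FPKM under CD, 86.6 with CD+7KC, 49.7 under WD and 37.7 with WD+7KC. Nearest to Ces3b, the member with the widest range, were Arl4d (0.391), Cyp2d9 (0.409) and Gm10319 (0.426), all farther away than Ces3a.

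Of 10 other carboxylesterase genes analysed, 8 were above 0 FPKM in WD or WD+7KC, with 7 lower and 1 higher in WD+7KC and a median of -0.58, while in WD relative to CD 4 were higher and 4 lower (median 0.0003). These counts and medians include Ces1a, Ces2d-ps, Ces2f, Ces2h and Ces4a, all below 1 FPKM. For WD+7KC against WD the counting intervals of these low genes included 0. Ces1b, Ces1c and Ces2g, which were above 1 FPKM, were lower in WD+7KC than in WD. In WD+7KC relative to CD+7KC, 7 were above 0 FPKM, of which 6 were lower and 1 higher (median -0.49), Ces1c being at -0.45 and Ces1b at -1.32. Ces1c was at 821.7 FPKM under CD, 782.4 with CD+7KC, 862.3 under WD and 573.9 with WD+7KC, above every member in each library. Ces1c was thus not lower in WD than in CD (0.07), where Ces1d and Ces1e were lower, but was lower in WD+7KC than in WD (-0.59, interval -0.62 to -0.55). In Ces1c 6.73% of the 75-base windows were shared with other genes. Ces1b was at 22.4, 19.6, 15.9 and 7.79 FPKM in CD, CD+7KC, WD and WD+7KC, which gives -1.03 for WD+7KC against WD. Ces2g was at 20.1, 21.4, 23.5 and 20.5 FPKM, about as steady as Ces2e. For WD+7KC against WD it was at -0.20 (interval -0.36 to -0.03), smaller in size than the shift of 0.22 made by rescaling to equal sums. Ces1a, Ces2d-ps, Ces2f, Ces2h and Ces4a were below 1 FPKM in every library, and Ces2b and Ces5a were listed at 0. Of the relatives of Aadac, Nceh1, the neutral cholesterol ester hydrolase gene, was at 10.3 FPKM under CD, 8.71 with CD+7KC, 14.2 under WD and 13.3 with WD+7KC, opposite to Aadac in the direction of the diet difference, and Aadacl2 and Aadacl3 were listed at 0.

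The lists of other hydrolases and of VLDL assembly had medians nearer 0 than the members, which were at -0.48 for WD+7KC against WD. Of the 4657 genes averaging 10 FPKM or more, 72.0% were lower in WD+7KC than in WD (median -0.12). In WD relative to CD, 47.7% of the 4652 such genes were lower (median 0.016). Among 13 other neutral lipid hydrolases and cofactors above 0 FPKM, 12 were higher and 1 lower in WD relative to CD with a median of 0.20, and 3 were higher and 10 lower in WD+7KC relative to WD with a median of -0.090, none of them past 1 in either direction. The ends of the latter range were Abhd5 (0.24), a cofactor that activates adipose triglyceride lipase, and G0s2 (-0.57), an inhibitor of the same lipase. Among 13 other ester, amide and epoxide hydrolases, 12 were lower in the WD+7KC library than in the WD library (median -0.31), from 0.08 for Abhd11 to -0.65 for Afmid, the arylformamidase gene, among those averaging 1 FPKM or more. The 6 partners in VLDL assembly had a median of -0.030, with Tm6sf2 (0.13) and Dgat1 (-0.23) at the ends.
Of 10 nuclear receptors and liver transcription factors linked to this family, 8 were lower in the WD+7KC library than in the WD library (median -0.16), close to the 72.0% and the median of -0.12 of all genes averaging 10 FPKM or more. Nr1i3, which encodes the xenobiotic receptor CAR, was at 45.6 FPKM under CD, 72.5 with CD+7KC, 29.4 under WD and 19.2 with WD+7KC. It was thus higher with 7KC under CD (0.67, interval 0.51 to 0.83) and lower with 7KC under WD (-0.61, interval -0.86 to -0.37). Nfe2l2, which encodes the oxidative stress regulator NRF2, was higher with 7KC under both diets, with 0.40 under each.

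Marker genes of several cell types also differed between the groups, in patterns that were not alike. The summed level of 6 macrophage and Kupffer cell markers was 136.4 FPKM under CD, 211.6 with CD+7KC, 230.1 under WD and 465.5 with WD+7KC, the reverse of the order of the members' sum, and 6 of 6 were higher in WD+7KC than in WD. For 3 endothelial markers it was 13.3, 17.7, 11.4 and 28.7 FPKM. The 5 hepatocyte markers analysed summed to 53719.3 FPKM under CD, 45268.7 with CD+7KC, 54693.9 under WD and 42537.1 with WD+7KC, and in WD relative to CD 2 were higher and 3 lower (median -0.03), where the median of the members was -0.72. Of the adipocyte markers Plin1 and Lep were at 0 in every library and Adipoq was at most 0.088 FPKM, while Fabp4, which macrophages and endothelium also express, ranged from 66.5 to 142.7 FPKM. The 5 intestinal markers summed to between 214.6 and 296.1 FPKM, nearly all of it from Fabp2 (208.3 to 288.5 FPKM). Lgals4 was between 5.3 and 7.4 FPKM, Vil1 was at most 0.156 FPKM, and Cdx1 and Cdx2 were at 0. The 4 exocrine pancreas markers summed to at most 0.349 FPKM. The part of the macrophage, endothelial and hepatocyte differences in the members' values was not tested.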

How the data were processed

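RNA from the liver of 4 groups of ob/ob mice (1 library each) was sequenced as 75-base single-end reads from a stranded mRNA kit. Per the labels and the study's methods, the authors mapped the reads to mm10 with TopHat2 2.0.13, Bowtie2 2.2.3 and SAMtools 0.1.19 and deposited FPKM values from Cufflinks 2.2.1, 1 per gene symbol and library. The annotation and the treatment of reads with several matches are not given in the sources used here. No count test fits FPKM values, and with 1 library per group no test was made.

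For every gene above 0 FPKM in either library the log2 ratio of FPKM + 0.1 was taken (pseudocount 0.1), and genes past 1 or -1 were counted. Fragments were estimated from the low FPKM values (up to 6 reads) of 15466 genes with 1 RefSeq mRNA of at least 600 bases, with the transcript length minus 200 bases, and gave 10940000 for CD, 10970000 for CD+7KC, 9440000 for WD and 12110000 for WD+7KC. Exact (Clopper-Pearson) 95% intervals of the FPKM ratio follow from these. The code was tested on simulated data. Transcripts and positions came from GENCODE vM21 and promoters from RefSeq (GRCm38.p6), which held 7 of the 10 members. Coding sequences of the longest RefSeq-linked transcript were aligned with Biopython 1.88.

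The named genes were the 10 members, the other carboxylesterases and Aadac relatives, the highest and lowest of each other list in WD+7KC relative to WD with a mean of at least 1 FPKM, and the 3 genes nearest in pattern to the members' mean and to the member with the widest range. The members and lists were chosen with earlier results of these data known. Alternatives were pseudocounts of 1, 0.01 and none, a filter of 1 FPKM, 4 scalings, a threshold of 0.58 and members with at most 5% shared windows. Python 3.11.15, numpy 2.4.6, pandas 2.3.3, scipy 1.17.1 and matplotlib 3.10.9 were used.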

Additional observations from a re-analysis of the deposited data

Results flagged for a closer look

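For 3 members the difference with 7KC had opposite signs under the diets, with the deposited values and under each of the 4 other scalings. The change under WD minus that under CD was -0.57 for Ces1g, -0.55 for Ces1d and -0.38 for Ces2e. Under CD the log2 fold changes were 0.12 for Ces1g, 0.03 for Ces1d, whose counting interval included 0, and 0.09 for Ces2e. Under WD they were -0.45, -0.51 and -0.29 with the deposited values. After rescaling to equal sums they were -0.24 for Ces1g, -0.30 for Ces1d and -0.07 for Ces2e, the last being within the counting error of that gene, and without the 20 highest genes -0.28, -0.34 and -0.11. With 1 library per group the difference between the diets was not tested.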

How the results depend on the processing

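With 1 library per group no replicate could be left out, and no paired analysis was possible because the groups hold 1 library each. Of 320 values for single members under the alternatives, none of those with a counting interval away from 0 changed sign. Of these values 287 moved by less than the distance from the middle of the counting interval to its ends. The other 33 moved by more, all 33 under rescaling to equal sums with or without the 20 highest genes. The members' median in WD+7KC relative to WD became -0.27 after rescaling to equal sums, -0.31 without the 20 highest genes and -0.37 for the 6 members with at most 5% shared windows. In WD+7KC relative to CD+7KC it became -0.80, -0.82 and -0.78, and for those 6 members it was -0.41 in WD relative to CD and -0.015 in CD+7KC relative to CD. Of the 2 members past 1 in WD+7KC relative to WD, 1 was left with a pseudocount of 1 or upper quartile scaling, and 0 after rescaling to equal sums, without the 20 highest genes or among the 6 members. Among the 6 members 0 of 4 were left in WD relative to CD and 1 of 5 in WD+7KC relative to CD+7KC. A threshold of 0.58 gave 2 in place of 0 in CD+7KC relative to CD and 8 in place of 5 in WD+7KC relative to CD+7KC. The members' sum became 2552.5 under CD, 2379.6 with CD+7KC, 1689.5 under WD and 1423.2 with WD+7KC after rescaling to equal sums. With upper quartile scaling it was 2664.9, 2475.7, 1719.3 and 1287.5, and without the 20 highest genes 2580.3, 2364.0, 1710.6 and 1399.6, always highest in CD and lowest in WD+7KC. Depth limits Ces2c and Ces3b most, with 86 reads for Ces2c in WD and 178 for Ces3b in WD+7KC.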
